A study of Mus musculus with 20 samples.

Results

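Liver RNA of diabetic db/db mice given saline (the model group, 4 libraries) was compared with liver RNA of C57BL/6J wild types, also on saline (the normal group, 4 libraries). The groups were taken from the labels, and these 8 libraries are 8 of the 20 samples of the series. db/db mice carry a mutation of Lepr, the receptor of the satiety hormone leptin, eat in excess, and become obese, insulin resistant and diabetic. The study gave other db/db mice pioglitazone or a plant extract for 12 weeks, and those groups are not described here. No group compared here received a drug. The sources used here do not give sex, age or the strain on which the mutation was bred. Effects of the Lepr mutation, of obesity and diabetes, and of any strain difference from C57BL/6J cannot be told apart. The labels name each animal by a number and say nothing of cages, days or batches, so p-values measure only the spread between libraries. That spread was estimated within groups over 16 libraries, these 8 and the db/db libraries given pioglitazone or bamboo leaf extract.

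As background, hepatocytes make most plasma proteins, store and export lipid, make bile acids and clear hormones and foreign compounds. In mice many of their genes differ between the sexes under the control of growth hormone, which acts through its receptor and the transcription factor STAT5: steady growth hormone favours cytochrome P450 and sulfotransferase genes typical of females, and pulses favour major urinary protein genes and others typical of males. Livers that lack leptin signalling are known to fill with triglyceride. During inflammation hepatocytes raise acute-phase genes, and resident macrophages, the Kupffer cells, and recruited blood cells add their own RNA.

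Levels are counts per 1000000 (CPM) after scaling for library composition. Where 4 values of a group follow each other, they stand in the order model_327, model_329, model_387, model_407 and normal_346, normal_349, normal_376, normal_409. A gene was called when edgeR's quasi-likelihood test gave it an adjusted p under 0.05 (Benjamini-Hochberg, 15744 genes). A call is termed stable where it was also made in each of the 8 fits with 1 library left out. Each of those fits kept the treated db/db libraries. Libraries held 17993327 to 25119799 counts in the model group and 16922833 to 21622959 in the normal group, and no pair within a group matched within sampling noise. The hepatocyte gene Alb, for serum albumin, stood at 20300, 32200, 31100 and 29900 CPM in model libraries, against 51900, 35500, 19600 and 60500 CPM in normal libraries and was abundant in every library. Of 18 hepatocyte markers 17 were not called. The libraries model_327 and model_387 stood apart from the other model libraries. On the first principal component of the 8 libraries, which held 46.1% of the variance, they scored 115 and 102, against 22.7 in model_407, -16.8 in model_329 and -63.7 to -47.7 in the normal libraries. Mitochondrial transcripts made up 15.4 ± 4.29% of counts in model and 19.6 ± 2.02% in normal libraries (SD, n = 4 each, two-sided exact permutation p = 0.143, where the smallest p possible is 0.0286).

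Of the 15744 genes, 973 were higher in model livers (6.18%) and 456 were lower (2.90%), together 9.08%. The median log2 fold change over all genes was 0.07. The called rises were the larger ones. Their median log2 fold change was 2.45, against -1.16 for the falls, and 601 of the 973 rises but 133 of the 456 falls exceeded 4-fold. All 4 model libraries lay above all 4 normal libraries for 601 of the 973 higher genes, where the groups of the other 372 overlapped, and all 4 lay below for 423 of the 456 lower genes. Over all genes tested, 6.57% lay entirely above and 7.13% entirely below. Replicates differed more in the model group: the SD of log2(CPM + 0.5) was larger in model than in normal libraries for 71.6% of genes, with a median of 0.47 in model and 0.31 in normal. Protein-coding genes were 13316 of the 15744 genes tested, and gave 910 of the 973 higher calls and most of the 456 lower calls. Of 707 antisense RNA genes tested, 25 were higher and 23 lower, and of 348 lincRNA genes 7 and 13. No type of gene was tested as a set.

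**Figure D1:**
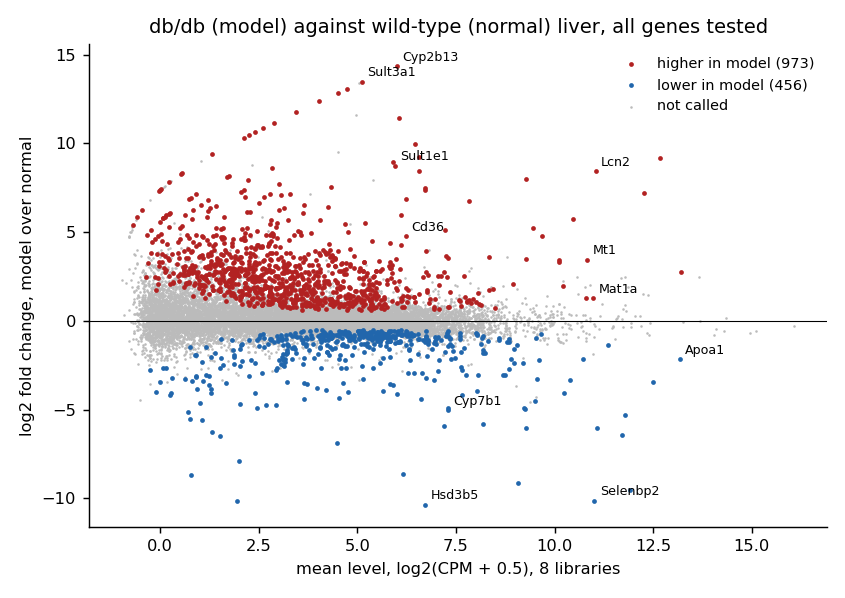
Log2 fold change of model over normal (vertical axis) against the mean level over the 8 libraries in log2(CPM + 0.5) (horizontal axis) for each of the 15744 genes tested. Red points are the 973 genes called higher, blue points the 456 called lower and grey points the rest. Rises spread to larger folds than falls, and the falls at high mean level include Selenbp2 and Apoa1.

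The 2 libraries that stood apart carried many of the rises. Among the 973 higher genes the highest model library was model_387 for 493 and model_327 for 364, and the lowest was model_329 for 649. Among the 456 lower genes the lowest library was model_327 for 257 and model_387 for 115. A fit with both left out is termed the reduced fit, and beside a list its counts of higher and lower members are given in that order. In it, 283 genes were higher (1.73%) and 155 lower (0.947%) of 16372 tested, 216 and 123 of them shared with the calls of all libraries. Of the 972 higher genes tested in both fits, 962 were still above normal, with a median log2 fold change of 1.34, and all 456 lower genes were still below, with a median of -1.01. Stable calls numbered 255 higher and 158 lower, together 2.62% of genes tested. Leaving out model_329 raised the counts to 1840 higher and 1069 lower, and leaving out normal_409 brought them to 296 and 209. A fit of the 8 libraries alone, without the treated db/db groups, called 110 higher (0.759%) and 116 lower (0.801%), of which 108 and 113 were shared. Some stable calls were made in it, such as that of Selenbp2 (adjusted p = 2.27e-05). Others were not, among them Fth1, F11 and Gbp2 (adjusted p = 0.114, 0.0826 and 0.0809). Of the 45 lists and families described below, 42 held at least 1 call with all libraries, 37 in the reduced fit and 26 in the fit of the 8 libraries alone.

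**Figure D2:**
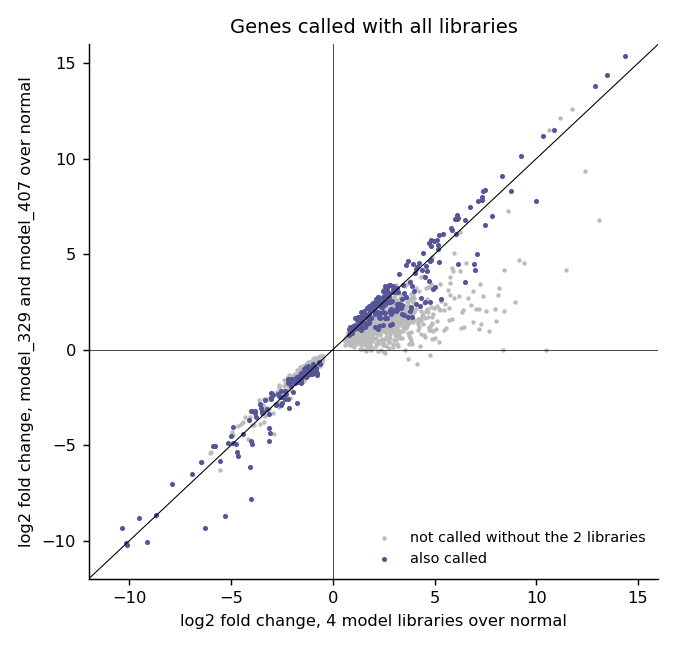
Log2 fold change over normal with all 4 model libraries (horizontal axis) and with model_329 and model_407 alone (vertical axis), for each gene called with all libraries. Dark points are also called without the other 2 libraries and grey points are not, and the line marks equal values. Falls lie along the line, and many rises lie below it.

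Among called genes with groups that did not overlap, the largest differences in CPM (not per transcript length) were gains in secreted and metal-binding proteins and losses in apolipoprotein A1, major urinary proteins and alpha-1-antitrypsins. Lcn2, which encodes a protein that binds bacterial iron carriers, stood at 11900, 49.9, 4370 and 392 CPM in model libraries, against 6.86, 16.1, 16.1 and 9.53 CPM in normal libraries (log2 fold change 8.43, SE 1.76, adjusted p = 0.0107). The model libraries differed widely from each other, and the lowest of them, model_329, still exceeded every normal library. Orm2, an acute-phase plasma glycoprotein gene, had the same order of libraries, with 5700, 341, 4280 and 794 CPM in model libraries, against 39.9, 77.9, 63.1 and 25 CPM in normal libraries (log2 fold change 5.75, SE 1.24, adjusted p = 0.0128). Apoa4, an apolipoprotein of lipid-carrying particles, stood at 4830, 233, 837 and 422 CPM in model libraries, against 61.5, 56.5, 24.6 and 90.9 CPM in normal libraries. Its log2 fold change of 4.76 moved to 3.09 without model_327. Without model_327 and model_387 together, Lcn2 and Orm2 were not called (adjusted p = 0.176 and 0.183) and Apoa4 was (log2 fold change 2.49, adjusted p = 0.0304).

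Metabolic enzymes were among these gains as well. Mat1a, which makes S-adenosylmethionine, the methyl donor of the liver, stood at 2410, 2890, 3030 and 3150 CPM in model libraries, against 1110, 1230, 1040 and 1320 CPM in normal libraries (log2 fold change 1.28, SE 0.27, adjusted p = 0.00991), a stable call. Its lowest model library held more than the highest normal library, and the model libraries were close to each other. Oat, the ornithine aminotransferase of the cells around the central vein, stood at 1300, 2370, 1020 and 2830 CPM in model libraries, against 607, 491, 329.1 and 500 CPM in normal libraries (log2 fold change 1.96, SE 0.45, adjusted p = 0.0159). The call of Oat was lost without normal_376 or normal_409 (adjusted p at most 0.0516) and was made without model_327 and model_387 (adjusted p = 0.00742). Ldha, which turns pyruvate into lactate, stood at 1720, 345, 600 and 547 CPM in model libraries, against 221, 247, 99.4 and 191 CPM in normal libraries, a call (adjusted p = 0.0229) lost without normal_346, normal_376, normal_409 or model_327 (adjusted p at most 0.0706). Fth1, the heavy chain of the iron store ferritin, stood at 3630, 1950, 2120 and 2430 CPM in model libraries, against 1180, 1110, 496 and 1280 CPM in normal libraries (log2 fold change 1.32, SE 0.31, adjusted p = 0.0188), a stable call.

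The major urinary proteins carry pheromones into urine and are made in large amounts by male mouse liver. Of 34 Mup genes and pseudogenes tested, 23 fell, 0 rose and 11 were not called, with a median log2 fold change of -4.11, and 29 of the 34 lay below normal in every model library. The summed level of the family was 1870, 1600, 931 and 3190 CPM in model libraries, against 52100, 56100, 21000 and 39600 CPM in normal libraries. Mup3 stood at 1120, 829, 598 and 1400 CPM in model libraries, against 12900, 10900, 5440 and 13200 CPM in normal libraries (log2 fold change -3.43, SE 0.61, adjusted p = 0.00411). Mup20, which encodes the male scent protein darcin, stood at 347, 129, 176 and 312 CPM in model libraries, against 3750, 2360, 1020 and 2670 CPM in normal libraries (log2 fold change -3.35, SE 0.78, adjusted p = 0.0171). Mup11 stood at 34.6, 23.7, 24.5 and 181 CPM in model libraries, against 4410, 5020, 4770 and 2800 CPM in normal libraries (log2 fold change -6.01, SE 1.09, adjusted p = 0.005). Without model_327 and model_387, 10 of the family were called and the median was -3.70. Reads of near-identical Mup copies can be assigned to the wrong copy, so the family sum is more certain than its members.

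Alpha-1-antitrypsins, plasma inhibitors of neutrophil elastase, are encoded by several near-identical genes. Serpina1e stood at 17.1, 9.84, 642 and 22.9 CPM in model libraries, against 9610, 8410, 4180 and 5370 CPM in normal libraries (log2 fold change -5.32, SE 1.39, adjusted p = 0.0284). Within the model group model_387 held far more than the others, and the log2 fold change moved to -8.69 without it. The call was lost without normal_346, normal_349, normal_409, model_327 or model_407 (adjusted p at most 0.0707). Serpina1c stood at 986, 1310, 1910 and 1730 CPM in model libraries, against 4130, 4270, 2180 and 4550 CPM in normal libraries (log2 fold change -1.35, SE 0.38, adjusted p = 0.0356), a call lost without normal_346, normal_349, normal_409, model_327, model_387 or model_407 (adjusted p at most 0.092), and Serpina1a, Serpina1b and Serpina1d were not called (log2 fold changes -0.98, -0.37 and -0.42, adjusted p = 0.105, 0.401 and 0.421). Apoa1, the main protein of high-density lipoprotein, stood at 1750, 1280, 8200 and 2310 CPM in model libraries, against 17200, 12200, 12100 and 18800 CPM in normal libraries (log2 fold change -2.16, SE 0.64, adjusted p = 0.0469), a call lost without any 1 library but model_387 (adjusted p at most 0.104). Ces3b, a carboxylesterase, stood at 20.6, 179, 119 and 224 CPM in model libraries, against 2490, 3490, 952 and 2200 CPM in normal libraries (log2 fold change -4.07, SE 0.79, adjusted p = 0.00709), a stable call.

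The stable rises of smallest p were in steroid, sterol and lipid handling and in signalling proteins, and 7 of the 10 stayed under 1 CPM in every normal library. Sult1e1, the sulfotransferase that inactivates oestrogens (chromosome 5, 87575969 to 87591594 in GRCm38, as are all gene spans below), stood at 114, 120, 198 and 59.4 CPM in model libraries, against 0.37, 0.377, 0.0489 and 0.343 CPM in normal libraries (log2 fold change 8.75, SE 0.58, adjusted p = 4.22e-07). Every model library lay far above every normal library. Slc22a27, an organic ion transporter gene (chromosome 19, 7864388 to 7966027), stood at 5.45, 14.2, 3.69 and 7.57 CPM in model libraries, against 0, 0.161, 0 and 0 CPM in normal libraries (log2 fold change 7.35, SE 0.67, adjusted p = 1.7e-05). Cyp39a1, an oxysterol hydroxylase of bile acid synthesis (chromosome 17, 43667425 to 43751431), stood at 4.77, 8.17, 9.11 and 8.08 CPM in model libraries, against 0.317, 0.807, 0.391 and 0.206 CPM in normal libraries (log2 fold change 4.09, SE 0.41, adjusted p = 4.27e-05). The groups of these genes were far apart in every library. Cd36, a fatty acid uptake receptor, stood at 247, 120, 64 and 146 CPM in model libraries, against 4.43, 10.6, 3.43 and 2.74 CPM in normal libraries. Mfsd2a, a transporter of lysophosphatidylcholine, stood at 113, 291, 107 and 281 CPM in model libraries, against 8.55, 13, 14 and 15.8 CPM in normal libraries (log2 fold change 3.95, SE 0.45, adjusted p = 9.79e-05). Mfsd2a was highest in model_329 and model_407, the model libraries lowest in Lcn2 and Orm2, whereas Cd36 was highest in model_327.

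The remaining genes of that set encode proteins of signalling and the cytoskeleton. Rasl10b, a Ras-like GTPase, stood at 11.1, 2.69, 10.8 and 7.31 CPM in model libraries, against 0.211, 0.108, 0.294 and 0.206 CPM in normal libraries (log2 fold change 5.24, SE 0.55, adjusted p = 5.92e-05). Lrtm2, a membrane protein with leucine-rich repeats, stood at 1.7, 5.32, 5.05 and 5.06 CPM in model libraries, against 0.106, 0, 0 and 0.0686 CPM in normal libraries (log2 fold change 6.49, SE 0.68, adjusted p = 5.92e-05). Stap1, a signalling adaptor, was even within each group, with 14.1, 13.6, 15.2 and 11.8 CPM in model libraries, against 1.37, 1.08, 1.42 and 1.03 CPM in normal libraries (log2 fold change 3.47, SE 0.38, adjusted p = 7.85e-05). Pls1, an actin-bundling plastin, stood at 4.47, 5.27, 6.83 and 12.5 CPM in model libraries, against 0.106, 0.377, 0.0489 and 0.274 CPM in normal libraries (log2 fold change 5.18, SE 0.58, adjusted p = 9.79e-05). Eda, the TNF-family ligand ectodysplasin A (chromosome X, 99975606 to 100400762), stood at 6.08, 4.62, 3.98 and 6 CPM in model libraries, against 0.845, 0.323, 0.587 and 0.891 CPM in normal libraries (log2 fold change 2.96, SE 0.33, adjusted p = 9.79e-05). Eda2r, which encodes a receptor for 1 form of ectodysplasin A and is a known p53 target, also rose, with 5.79, 2.1, 1.82 and 3.83 CPM in model libraries, against 0.0528, 0.215, 0.196 and 0.0686 CPM in normal libraries (log2 fold change 4.58, SE 0.99, adjusted p = 0.012). The ligand and the receptor thus had non-overlapping groups, and both calls were stable.

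In the 10 stable falls of smallest p every model library lay below every normal library. Selenbp2, a selenium-binding protein gene (chromosome 3, 94693556 to 94704413), stood at 2.48, 3.33, 5.26 and 3.53 CPM in model libraries, against 3990, 4010, 4400 and 4050 CPM in normal libraries (log2 fold change -10.13, SE 0.54, adjusted p = 2.47e-08), while its paralog Selenbp1 stood at 74.4, 332, 170 and 280 CPM in model libraries, against 268, 208, 193 and 287 CPM in normal libraries and was not called (log2 fold change -0.16, SE 0.34, adjusted p = 0.79). The non-coding gene A530083I20Rik stood at 1.17, 1.18, 0.953 and 0.978 CPM in model libraries, against 28.5, 25.7, 15.5 and 22.1 CPM in normal libraries (log2 fold change -4.42, SE 0.31, adjusted p = 7.08e-07). Sdr9c7, a short-chain dehydrogenase gene (chromosome 10, 127898518 to 127911761), stood at 6.32, 7.96, 5.63 and 6.29 CPM in model libraries, against 47.5, 50, 21 and 43.3 CPM in normal libraries (log2 fold change -2.63, SE 0.25, adjusted p = 3.13e-05). Tuft1, which encodes tuftelin, stood at 3.65, 5, 2.65 and 4.64 CPM in model libraries, against 30.7, 44.4, 49.8 and 53.8 CPM in normal libraries (log2 fold change -3.49, SE 0.35, adjusted p = 4.46e-05). In each of these genes the highest model library lay far below the lowest normal library. Rapgef4, a cAMP-activated exchange factor also called Epac2, stood at 120, 149, 99.6 and 162 CPM in model libraries, against 475, 423, 465 and 511 CPM in normal libraries (log2 fold change -1.82, SE 0.20, adjusted p = 8.21e-05), a smaller fall with little spread in either group. BC021767 stood at 0.243, 0.484, 0.373 and 0.17 CPM in model libraries, against 13.4, 11.4, 8.12 and 5.83 CPM in normal libraries (log2 fold change -4.92, SE 0.54, adjusted p = 7.85e-05). Tuft1 (94612757 to 94658872) and BC021767 (94661830 to 94670696) lie close to Selenbp2 on chromosome 3. Whether the falls of these neighbours are separate from each other was not tested. The set also held Cyp7b1, whose enzyme hydroxylates oxysterols in a second route to bile acids, at 4.77, 12, 6.01 and 14.3 CPM in model libraries, against 381.9, 381.7, 122 and 324.9 CPM in normal libraries. The steroid dehydrogenase gene Hsd3b5, also of the set, stood at 0, 0.43, 0 and 0.213 CPM in model libraries, against 261, 235, 85.1 and 254 CPM in normal libraries.

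**Figure D3:**
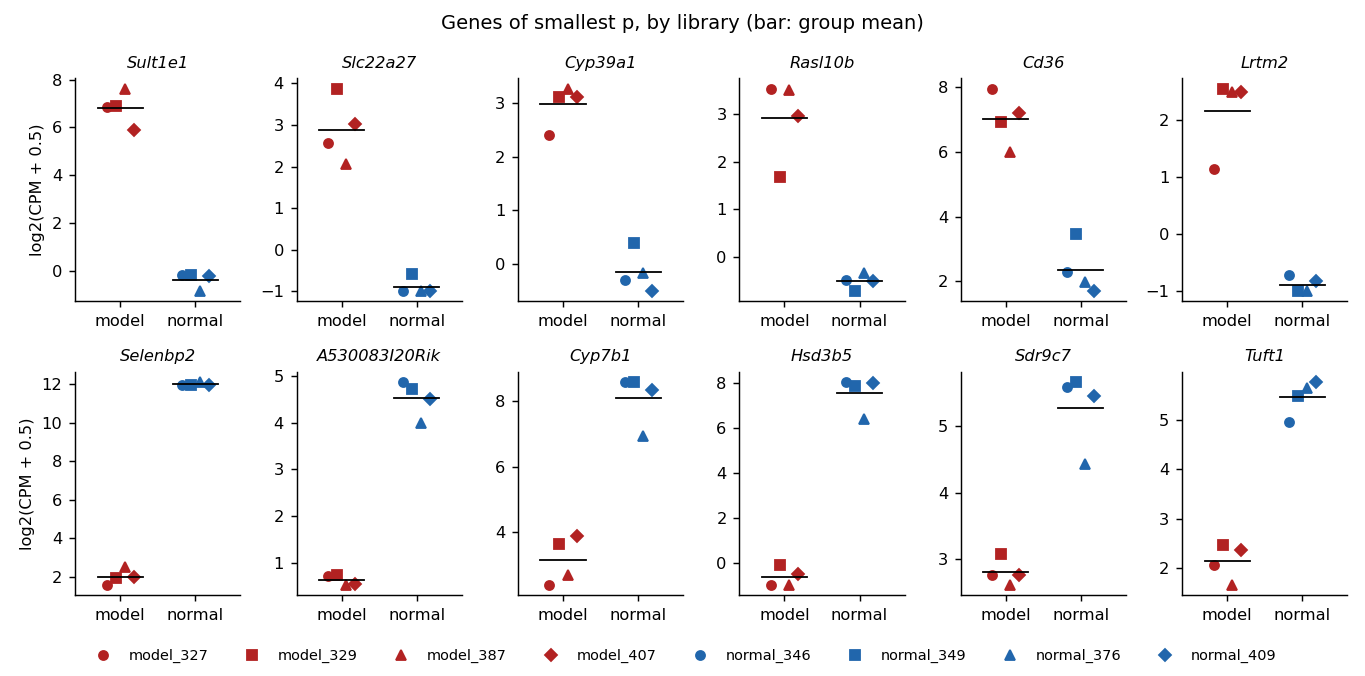
Level in log2(CPM + 0.5) of the 6 higher (upper row) and 6 lower (lower row) stable calls of smallest p, by library, with model libraries in red on the left and normal libraries in blue on the right of each panel. Symbols mark the libraries and bars the group means. The groups do not overlap in any panel, and Selenbp2 shows the widest gap.

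Complement C4 is encoded in mice by a pair of near-identical genes, of which C4a, the sex-limited protein, is known to be made mainly in males. C4a stood at 39, 14.7, 54.2 and 17.7 CPM in model libraries, against 443, 451, 570 and 501 CPM in normal libraries (log2 fold change -3.97, SE 0.43, adjusted p = 7.85e-05). C4b, the ordinary complement component, stood at 1440, 1110, 1870 and 1350 CPM in model libraries, against 1490, 1810, 2480 and 1410 CPM in normal libraries and was not called (log2 fold change -0.32, SE 0.39, adjusted p = 0.622). Reads can be shared between the pair, so the split is uncertain. Of 40 complement and coagulation genes tested, 1 rose, 4 fell and 35 were not called (median log2 fold change -0.12, with 0 and 2 in the reduced fit), and 10 lay below normal in every model library. F11, coagulation factor XI, fell in a stable call with 30.6, 81.8, 94.8 and 61.4 CPM in model libraries, against 191, 162, 403.7 and 160 CPM in normal libraries (log2 fold change -1.77, SE 0.35, adjusted p = 0.00713). C6 of the membrane attack complex stood at 45.3, 20.5, 82.6 and 74.3 CPM in model libraries, against 330, 366, 301 and 348 CPM in normal libraries (log2 fold change -2.59, SE 0.68, adjusted p = 0.0293), a call lost without any 1 normal library or model_327 (adjusted p at most 0.0772).

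Some genes had reads in only 1 group. Of the 973 higher genes, 21 had no read in any normal library, and of the 456 lower genes 2 had none in any model library. Folds against such a group were computed against 3 counts over the group and are lower bounds. The aldehyde dehydrogenase gene Aldh3b3 was at least 32.1-fold higher, or 18.1-fold without model_387, and the aldo-keto reductase gene Akr1b7 at least 8.03-fold higher, or 4.88-fold without model_407. Sult3a2, a sulfotransferase gene, was at least 186-fold higher, or 40.2-fold without model_329. Single libraries thus carried much of each bound. Serpina9, a serpin gene of clade A, was at least 195-fold lower than in normal livers, where it stood at 7.76, 6.51, 5.04 and 7.68 CPM. All of these calls were stable. In the fit of the 8 libraries alone Serpina9 was called (adjusted p = 0.0028), whereas Aldh3b3 and Sult3a2 were not (adjusted p = 0.0536 and 0.0801). Akr1b7 did not pass the filter on low counts there.

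Growth hormone acts through its receptor Ghr and STAT5 to raise insulin-like growth factor 1 and the feedback inhibitor SOCS2, and is known to repress Bcl6. Of 20 genes of the receptor, of STAT5 signalling and of the IGF system, 2 rose, 3 fell and 15 were not called (median log2 fold change -0.34, 12 below 0, with 1 and 0 in the reduced fit). Socs2 stood at 5.93, 14.6, 12.6 and 12.9 CPM in model libraries, against 94.9, 85.4, 27.6 and 79.2 CPM in normal libraries (log2 fold change -2.64, SE 0.47, adjusted p = 0.00444), a stable call. Igfbp2, which binds and carries IGFs, stood at 16.9, 108, 38.8 and 62 CPM in model libraries, against 628, 411, 387.04 and 480 CPM in normal libraries (log2 fold change -3.08, SE 0.72, adjusted p = 0.0176), a call lost without model_387 (adjusted p = 0.0511). Igf1 stood at 474, 582, 647 and 537 CPM in model libraries, against 1130, 1140, 893 and 1270 CPM in normal libraries and, although the groups did not overlap, was not called (log2 fold change -0.98, SE 0.31, adjusted p = 0.0557). Ghr stood at 372, 291, 210 and 369 CPM in model libraries, against 490, 412, 303 and 479 CPM in normal libraries (log2 fold change -0.44, SE 0.25, adjusted p = 0.253). Igfals, the carrier that holds IGF1 in the circulation, stood at 13.8, 99.5, 51.3 and 64.5 CPM in model libraries, against 212, 182, 79.7 and 180 CPM in normal libraries (log2 fold change -1.51, SE 0.46, adjusted p = 0.05). Neither of these was called, the second with a p that did not fall under the threshold of 0.05. Igfbp1, an IGF-binding protein that insulin is known to repress, stood at 244, 16.9, 71.2 and 61.9 CPM in model libraries, against 3.27, 5.86, 30.4 and 7.27 CPM in normal libraries (log2 fold change 3.07, SE 0.88, adjusted p = 0.0415). Socs1, an inhibitor of cytokine signalling, stood at 23.4, 0.0538, 34.4 and 0.893 CPM in model libraries, against 1.32, 0.645, 0.832 and 0.48 CPM in normal libraries (log2 fold change 4.15, SE 1.15, adjusted p = 0.0367). The call of Socs1 was lost without any 1 normal library, model_327 or model_387 (adjusted p at most 0.101), and without both of these model libraries its log2 fold change was -0.76. The call of Igfbp1 was lost without the same libraries except normal_376 (at most 0.16). Lifr, the receptor of leukaemia inhibitory factor, stood at 58.1, 155, 59 and 105 CPM in model libraries, against 821, 982, 470 and 793 CPM in normal libraries (log2 fold change -3.02, SE 0.34, adjusted p = 9.79e-05), a stable call.

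Bcl6, a transcriptional repressor that opposes STAT5 at many liver genes, fell, with 42.2, 43, 41 and 32.7 CPM in model libraries, against 87.4, 97.2, 229 and 60.4 CPM in normal libraries (log2 fold change -1.58, SE 0.39, adjusted p = 0.0219). The normal library normal_376 was highest, and without it the log2 fold change was -1.04 and the call was lost (adjusted p = 0.0779). The 250 bases before the RefSeq starts of Bcl6 (chr16:23981284-23981533, minus strand) and Sdr9c7 (chr10:127898285-127898534, plus strand), in GRCm38.p6, are shown because both genes fell and both windows hold the STAT5 letters TTCNNNGAA, marked in capitals.
Bcl6: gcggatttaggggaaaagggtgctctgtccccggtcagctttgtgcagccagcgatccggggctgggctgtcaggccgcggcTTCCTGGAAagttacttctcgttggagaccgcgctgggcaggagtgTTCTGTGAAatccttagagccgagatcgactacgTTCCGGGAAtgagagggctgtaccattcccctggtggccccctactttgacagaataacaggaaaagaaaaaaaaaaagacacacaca
Sdr9c7: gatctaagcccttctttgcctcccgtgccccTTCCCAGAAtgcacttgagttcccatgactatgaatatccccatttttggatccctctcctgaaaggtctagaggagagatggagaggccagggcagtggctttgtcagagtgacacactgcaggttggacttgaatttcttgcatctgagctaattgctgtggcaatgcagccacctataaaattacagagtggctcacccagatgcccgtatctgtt
The Bcl6 window, 1 of 2 RefSeq gives for the gene, held 3 matches and the Sdr9c7 window 1, with none overlapping a metal response motif. The letters occurred on either strand in 7.77% of 901 windows of higher genes and 7.60% of 434 windows of lower genes, against 6.15% of 14206 windows of all genes tested. The windows of Selenbp2, Hsd3b5, Sult1e1, Slc22a27 and Cd36 held no match. A match describes letters and is not evidence of binding.

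Metallothioneins are small proteins that bind zinc and copper and are encoded by neighbouring genes on chromosome 8. Mt1 (chromosome 8, 94179082 to 94180327) stood at 6280, 2290, 3310 and 1450 CPM in model libraries, against 193, 266, 603 and 150 CPM in normal libraries (log2 fold change 3.46, SE 0.72, adjusted p = 0.00965), a stable call. Mt2 stood at 4110, 1210, 1890 and 791 CPM in model libraries, against 70.7, 144, 523 and 77.9 CPM in normal libraries (log2 fold change 3.30, SE 0.81, adjusted p = 0.0214), with the libraries in the same order within the model group. The call of Mt2 was lost without normal_346, normal_349, normal_409 or model_327 (adjusted p at most 0.0694), and without model_327 and model_387 neither was called (adjusted p = 0.0886 and 0.218). Of 21 genes of iron, zinc and copper handling, 5 rose, 0 fell and 16 were not called (median log2 fold change 0.41, with 1 and 0 in the reduced fit). Hamp, the iron hormone hepcidin, stood at 332, 440, 423 and 408.3 CPM in model libraries, against 678, 538, 370 and 906 CPM in normal libraries and was not called (log2 fold change -0.64, SE 0.38, adjusted p = 0.287). The 250 bases before the RefSeq starts of Mt1 (chr8:94178839-94179088, plus strand) and Mt2 (chr8:94172368-94172617, plus strand) are shown because the pair rose together, with the metal response letters TGCACNC or TGCGCNC, on either strand, in capitals.
Mt1: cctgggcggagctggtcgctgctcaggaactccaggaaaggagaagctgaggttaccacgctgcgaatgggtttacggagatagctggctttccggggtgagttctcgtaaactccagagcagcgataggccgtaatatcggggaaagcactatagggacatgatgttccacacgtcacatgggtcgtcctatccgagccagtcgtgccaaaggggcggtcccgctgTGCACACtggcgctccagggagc
Mt2: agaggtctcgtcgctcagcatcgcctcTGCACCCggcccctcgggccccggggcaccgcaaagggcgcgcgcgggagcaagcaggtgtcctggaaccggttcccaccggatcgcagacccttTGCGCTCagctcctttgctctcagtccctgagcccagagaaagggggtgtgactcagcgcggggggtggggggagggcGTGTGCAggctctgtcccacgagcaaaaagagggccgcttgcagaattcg
The Mt1 window held 1 match and the Mt2 window 3. Only the 250 bases before 1 RefSeq start of each gene were searched, and bases beyond that start were not. The counts therefore do not compare the whole promoters of the pair. These short letters are common: they occurred in 28.7% of windows of all genes tested, in 25.2% of those of higher genes and in 35.5% of those of lower genes.

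Insulin normally raises glucose storage and fat synthesis in hepatocytes and lowers glucose output. Of 23 genes of insulin signalling and glycogen, 2 rose, 2 fell and 19 were not called, with 1 and 0 in the reduced fit. None of the 4 calls was stable. Gys2, the liver glycogen synthase, stood at 66.6, 264, 111 and 203 CPM in model libraries, against 367, 224, 615 and 389 CPM in normal libraries (log2 fold change -1.31, SE 0.37, adjusted p = 0.0378). Ppp1r3g, a subunit that targets a phosphatase to glycogen, stood at 1.41, 4.46, 0.331 and 13.1 CPM in model libraries, against 0.317, 0, 0.196 and 0.206 CPM in normal libraries (log2 fold change 4.70, SE 1.16, adjusted p = 0.0226). Gys2 lost its call without normal_346, normal_376, normal_409, model_327 or model_387 (adjusted p at most 0.117), and Ppp1r3g without any 1 normal library (at most 0.0646). The gluconeogenic genes Pck1 (log2 fold change -0.02, SE 0.30, adjusted p = 0.971) and G6pc (log2 fold change 0.61, SE 0.77, adjusted p = 0.639) were not called, and G6pc ranged widely, with 16.1, 341, 73.4 and 500 CPM in model libraries, against 40.4, 105, 95.3 and 371 CPM in normal libraries.

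Of 23 genes of fatty acid synthesis, desaturation and elongation, 1 rose, 2 fell and 20 were not called (median 0.10, with 0 and 2 in the reduced fit). Fasn, the fatty acid synthase, stood at 313, 256, 225 and 279 CPM in model libraries, against 179, 238, 375 and 375 CPM in normal libraries (log2 fold change -0.12, SE 0.33, adjusted p = 0.839). Srebf1, its transcriptional driver, stood at 43.2, 300, 116 and 244 CPM in model libraries, against 175, 170, 258 and 257 CPM in normal libraries (log2 fold change -0.29, SE 0.41, adjusted p = 0.674). The desaturase gene Scd1 stood at 8080, 655, 531 and 1650 CPM in model libraries, against 328.3, 760, 492 and 1380 CPM in normal libraries (log2 fold change 1.89, SE 0.79, adjusted p = 0.133), with model_327 far above all other libraries. None of these was called. The elongase genes Elovl3 and Elovl2 fell. Elovl3 stood at 3.55, 7.48, 2.49 and 21.3 CPM in model libraries, against 104, 168, 52.6 and 87.2 CPM in normal libraries (log2 fold change -3.56, SE 0.64, adjusted p = 0.00477), a stable call. Elovl2, which extends polyunsaturated fatty acids, stood at 149, 86.3, 107 and 110 CPM in model libraries, against 229, 197, 157 and 223 CPM in normal libraries (log2 fold change -0.83, SE 0.20, adjusted p = 0.0176), a call lost without normal_346 or normal_409 (adjusted p at most 0.0592). The gene that rose, the desaturase gene Scd2, stood at 3.02, 2.96, 15.9 and 3.91 CPM in model libraries, against 2.59, 1.29, 1.76 and 1.3 CPM in normal libraries. Without model_387 its log2 fold change of 1.89 moved to 0.92, and its call was lost there and without any 1 normal library (adjusted p at most 0.156).

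In triglyceride assembly, lipid droplets and lipolysis 5 of 27 genes rose and 0 fell (median 0.35, with 3 and 0 in the reduced fit), with 22 not called and 1 stable rise. That gene, Mogat2, joins fatty acids to monoacylglycerol and stood at 2.14, 9.95, 2.61 and 8.55 CPM in model libraries, against 0.106, 0.484, 0.0979 and 0.411 CPM in normal libraries. Its relative Mogat1 stood at 8.71, 3.66, 0.207 and 6.38 CPM in model libraries, against 0, 0.43, 0 and 0.0686 CPM in normal libraries (log2 fold change 5.18, SE 1.17, adjusted p = 0.0159), with model_387 inside the range of the normal libraries and a call lost without normal_409 (adjusted p = 0.0552). Fitm1, which helps to bud lipid droplets, stood at 43, 58.4, 16.3 and 85.9 CPM in model libraries, against 20.1, 14.1, 7.73 and 21 CPM in normal libraries (log2 fold change 1.70, SE 0.43, adjusted p = 0.0241). That call was lost without normal_349, normal_376 or model_407 (adjusted p at most 0.0728). The lipid droplet fusion gene Cidea stood at 42.5, 0.376, 0 and 9.74 CPM in model libraries, against 0, 0.108, 0 and 0 CPM in normal libraries, so that its rise (adjusted p = 0.0239) rested on model_327 and model_407, and it was lost without model_327 or any 1 normal library (at most 0.0838). Gpat3, which starts triglyceride synthesis from glycerol phosphate and was no member of the list, rose in a stable call with 21, 8.82, 11.2 and 14.5 CPM in model libraries, against 2.38, 2.31, 2.54 and 1.1 CPM in normal libraries (log2 fold change 2.72, SE 0.34, adjusted p = 0.000241). Smpd3, a sphingomyelinase gene, and Cers6, a ceramide synthase gene, were members of no list and rose in stable calls. Smpd3 stood at 17.9, 5.32, 26.8 and 13.4 CPM in model libraries, against 1.43, 1.72, 1.52 and 2.61 CPM in normal libraries (log2 fold change 3.13, SE 0.45, adjusted p = 0.000869). Cers6 stood at 69.3, 17.6, 54.5 and 18.5 CPM in model libraries, against 10.9, 10.3, 8.32 and 4.53 CPM in normal libraries (log2 fold change 2.23, SE 0.39, adjusted p = 0.00381).

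Of 27 genes of cholesterol synthesis and uptake, 0 rose and 1 fell, with 26 not called (median -0.19, with 0 and 0 in the reduced fit). That gene, Scap, which encodes the sterol-sensing escort of the SREBP factors, stood at 36.6, 87.1, 57.7 and 76.9 CPM in model libraries, against 122, 115, 189 and 124 CPM in normal libraries (log2 fold change -1.09, SE 0.25, adjusted p = 0.0149), a stable call not made without model_327 and model_387 (adjusted p = 0.112). Among 24 secreted signalling proteins of liver, 4 rose, 0 fell and 20 were not called (median 0.01, with 1 and 0 in the reduced fit). Fst, the activin antagonist follistatin, stood at 12.1, 10.6, 14.8 and 11.5 CPM in model libraries, against 1.79, 1.56, 3.13 and 1.85 CPM in normal libraries (log2 fold change 2.55, SE 0.32, adjusted p = 0.000268), a stable and even rise. Fgf21, a fasting and stress hormone, stood at 35.9, 0.968, 2.78 and 2.17 CPM in model libraries, against 0.106, 0.484, 0.881 and 0.754 CPM in normal libraries. Its log2 fold change of 4.22 moved to 1.83 without model_327, and its call was lost there and without any 1 normal library (adjusted p at most 0.0846). Inhbb, an activin subunit, stood at 6.96, 1.29, 1.04 and 3.44 CPM in model libraries, against 0.317, 0.592, 0.343 and 0.274 CPM in normal libraries (log2 fold change 3.03, SE 0.79, adjusted p = 0.0268) and lost its call without the same libraries (at most 0.0803).

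Amino acid breakdown had 0 of 36 genes called by edgeR (median log2 fold change -0.11), with 2 higher and 1 lower at an unadjusted p under 0.05 and 1 higher by DESeq2, which called 10.2% of all genes higher and 5.40% lower. Within the model group the list level, as the mean of log2(CPM + 0.5) less that of the normal group, was -1.04 in model_327, 0.30 in model_329, -0.53 in model_387 and 0.17 in model_407. Tat, the tyrosine aminotransferase, had the smallest p, with 1930, 990, 938 and 1310 CPM in model libraries, against 392, 418, 536 and 620 CPM in normal libraries (log2 fold change 1.40, SE 0.44, adjusted p = 0.0589). In the urea cycle and ammonia handling 2 of 13 genes rose and 0 fell (1 and 0 in the reduced fit). Rhbg, an ammonia channel of the cells around the central vein, stood at 4.38, 5.86, 3.4 and 6.42 CPM in model libraries, against 1.27, 0.753, 0.93 and 0.96 CPM in normal libraries (log2 fold change 2.35, SE 0.43, adjusted p = 0.00501), a stable call. Of 24 genes of methionine, methyl group and serine metabolism 2 rose, Mat1a and Psat1, and 0 fell (2 and 0 in the reduced fit). Psat1, of serine synthesis, stood at 7.83, 0.0538, 6.05 and 0.51 CPM in model libraries, against 0.211, 0.0538, 0.587 and 0.0686 CPM in normal libraries, high in the 2 libraries that stood apart and within the normal range in the others. Its call was lost without normal_346, normal_349, normal_409, model_327 or model_387 (adjusted p at most 0.101). Nuclear-encoded respiratory chain subunits had 0 of 85 genes called by edgeR (median 0.20), with 8 higher and 1 lower at an unadjusted p under 0.05 and 1 higher by DESeq2.

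Liver lobules differ between the cells around the portal vein and those around the central vein. Of 19 pericentral genes 3 rose, 0 fell and 16 were not called (median -0.05, with 3 and 0 in the reduced fit). Of 16 periportal genes 0 rose and 2 fell (median -0.21, with 0 and 0 in the reduced fit). Besides Oat and Rhbg, the pericentral gene that rose was Ahr, the dioxin receptor, with 65.8, 35.7, 44.3 and 43.3 CPM in model libraries, against 20.7, 24.4, 36.4 and 16.3 CPM in normal libraries (log2 fold change 0.95, SE 0.26, adjusted p = 0.0346), a call lost without normal_346, normal_349, normal_409, model_327 or model_387 (adjusted p at most 0.106). The periportal genes that fell were Cdh1, E-cadherin, with 3.7, 4.41, 2.65 and 3.19 CPM in model libraries, against 16, 16, 13.3 and 17.4 CPM in normal libraries (log2 fold change -2.17, SE 0.56, adjusted p = 0.0257), and Cyp2f2, with 134, 392, 194 and 377 CPM in model libraries, against 777, 598, 437 and 648 CPM in normal libraries (log2 fold change -1.16, SE 0.34, adjusted p = 0.0431). Cdh1 lost its call without normal_346, normal_349, normal_409 or model_387 (at most 0.0647), and Cyp2f2 without any library but model_329 and model_407 (at most 0.112). The pericentral list stood at -0.88 in model_327, 0.64 in model_329, -0.37 in model_387 and 0.74 in model_407. Among 25 transcription factors of hepatocytes 2 rose and 2 fell (1 and 0 in the reduced fit), and Hnf4a, the main hepatocyte factor, was not called (log2 fold change -0.22, SE 0.24, adjusted p = 0.591). Thyroid hormone receptor alpha, Thra, was no member of the list and fell in a stable call, with 32.9, 73.9, 26 and 39.8 CPM in model libraries, against 154, 142, 203 and 191 CPM in normal libraries (log2 fold change -1.998, SE 0.38, adjusted p = 0.00557). Its span (chromosome 11, 98740638 to 98769006) overlaps that of the clock gene Nr1d1 (98767932 to 98775333), which also fell. Reads of either gene may have been counted for the other.

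Receptor and junction genes were among the other stable calls. Fgfr1, a receptor of fibroblast growth factors, stood at 3.11, 8.71, 8.95 and 7.61 CPM in model libraries, against 45.6, 34.6, 60.5 and 35.7 CPM in normal libraries (log2 fold change -2.63, SE 0.39, adjusted p = 0.00111). Adora1, the adenosine A1 receptor, stood at 16.8, 25.7, 25.3 and 32.5 CPM in model libraries, against 4.96, 2.42, 7.24 and 7.68 CPM in normal libraries (log2 fold change 2.17, SE 0.30, adjusted p = 0.000671). Robo1, a receptor of Slit guidance proteins, stood at 11.8, 20.9, 12 and 17.6 CPM in model libraries, against 4.01, 2.42, 2.3 and 2.67 CPM in normal libraries (log2 fold change 2.45, SE 0.28, adjusted p = 0.000122). Fgfr1 was the lower and the other pair the higher genes, and none of the 3 had overlapping groups. Ocln, the tight junction protein occludin, stood at 4.57, 9.57, 5.38 and 6.34 CPM in model libraries, against 16.2, 13.8, 25 and 24.6 CPM in normal libraries (log2 fold change -1.62, SE 0.25, adjusted p = 0.00132). Lama3, a laminin chain, stood at 0.292, 1.67, 2.94 and 3.27 CPM in model libraries, against 23, 21.5, 51.2 and 17.4 CPM in normal libraries (log2 fold change -3.78, SE 0.59, adjusted p = 0.0016). The transcription factor genes Foxq1 and Hes1 also fell (log2 fold changes -2.53 and -1.35, adjusted p = 0.0016 for both). Deptor, an inhibitor of the growth kinase mTOR, stood at 42.6, 83.9, 47.4 and 80.3 CPM in model libraries, against 139, 132, 155 and 160 CPM in normal libraries (log2 fold change -1.20, SE 0.22, adjusted p = 0.00522).

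Several enzyme and transporter families that clear hormones and foreign compounds held both rises and falls, and others only rises or only falls. Of all genes tested 6.18% rose and 2.90% fell (1.73% and 0.947% in the reduced fit). With all libraries some families, such as the ABC transporters, lay near these shares. No family was tested as a set. Of 54 genes of the cytochrome P450 families CYP1 to CYP3, 10 rose, 6 fell and 38 were not called (median 0.06, with 9 and 1 in the reduced fit). Cyp2c39 stood at 9.78, 12.1, 5.01 and 11.4 CPM in model libraries, against 1.16, 0.377, 0.391 and 0 CPM in normal libraries (log2 fold change 4.25, SE 0.56, adjusted p = 0.000431). Cyp2u1, a fatty acid hydroxylase, stood at 8.56, 6.02, 3.69 and 8.33 CPM in model libraries, against 58.8, 51.6, 66.8 and 75.1 CPM in normal libraries (log2 fold change -3.25, SE 0.38, adjusted p = 0.000122). Of 14 sulfotransferase genes 5 rose and 1 fell (6 and 0 of 15 tested in the reduced fit), and 8 of the 20 sulfotransferase genes in the table had no read in any normal library, so that some passed the filter on low counts through other groups. Of 14 hydroxysteroid dehydrogenase genes 0 rose and 4 fell (median -0.38, with 0 and 3 in the reduced fit), and of 17 Slc22 transporter genes 5 rose and 1 fell (median -0.17, with 4 and 0 in the reduced fit). Hsd17b2, which inactivates oestradiol and testosterone, stood at 34.1, 83.5, 58.7 and 94.2 CPM in model libraries, against 316, 279, 224 and 338 CPM in normal libraries (log2 fold change -2.10, SE 0.31, adjusted p = 0.000916). Slc22a3, an organic cation transporter, stood at 25.6, 20.3, 14.1 and 30.7 CPM in model libraries, against 2.59, 4.68, 3.13 and 2.88 CPM in normal libraries (log2 fold change 2.77, SE 0.37, adjusted p = 0.000431). Of 41 ABC transporter genes 3 rose and 2 fell (median 0.01, with 5 and 0 in the reduced fit). Abcb11, the bile salt export pump, stood at 166, 494, 194 and 333 CPM in model libraries, against 640, 753, 857 and 755 CPM in normal libraries (log2 fold change -1.34, SE 0.31, adjusted p = 0.0173), a call lost without model_387 (adjusted p = 0.0501). Of 15 UDP-glucuronosyltransferase genes 1 rose and 0 fell (0 and 1 of 16 tested in the reduced fit), and of 21 glutathione transferase genes 1 rose and 2 fell (3 and 2 in the reduced fit). Of 15 genes of the family CYP4, 3 rose and 1 fell (2 and 0 in the reduced fit), and of 23 alcohol and aldehyde dehydrogenase genes 3 rose and 1 fell (2 and 0 in the reduced fit). Of 14 aldo-keto reductase genes 1 rose and 0 fell (2 and 0 in the reduced fit), and of 7 Slco organic anion transporter genes 1 rose and 2 fell (0 and 1 in the reduced fit). Among 19 clade A serpin genes, which hold the alpha-1-antitrypsins, 6 rose and 4 fell. The reduced fit called 0 of them higher and 4 lower, and the list stood at -0.11 in model_327, -1.71 in model_329, -0.06 in model_387 and -1.17 in model_407. Flavin-containing monooxygenases rose for 2 of 5 genes, and for 4 without model_327 and model_387. The sulfotransferase list stood at -0.04 in model_327, 3.19 in model_329, 0.58 in model_387 and 1.73 in model_407, so it was lowest in the libraries that stood apart.

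**Figure D4:**
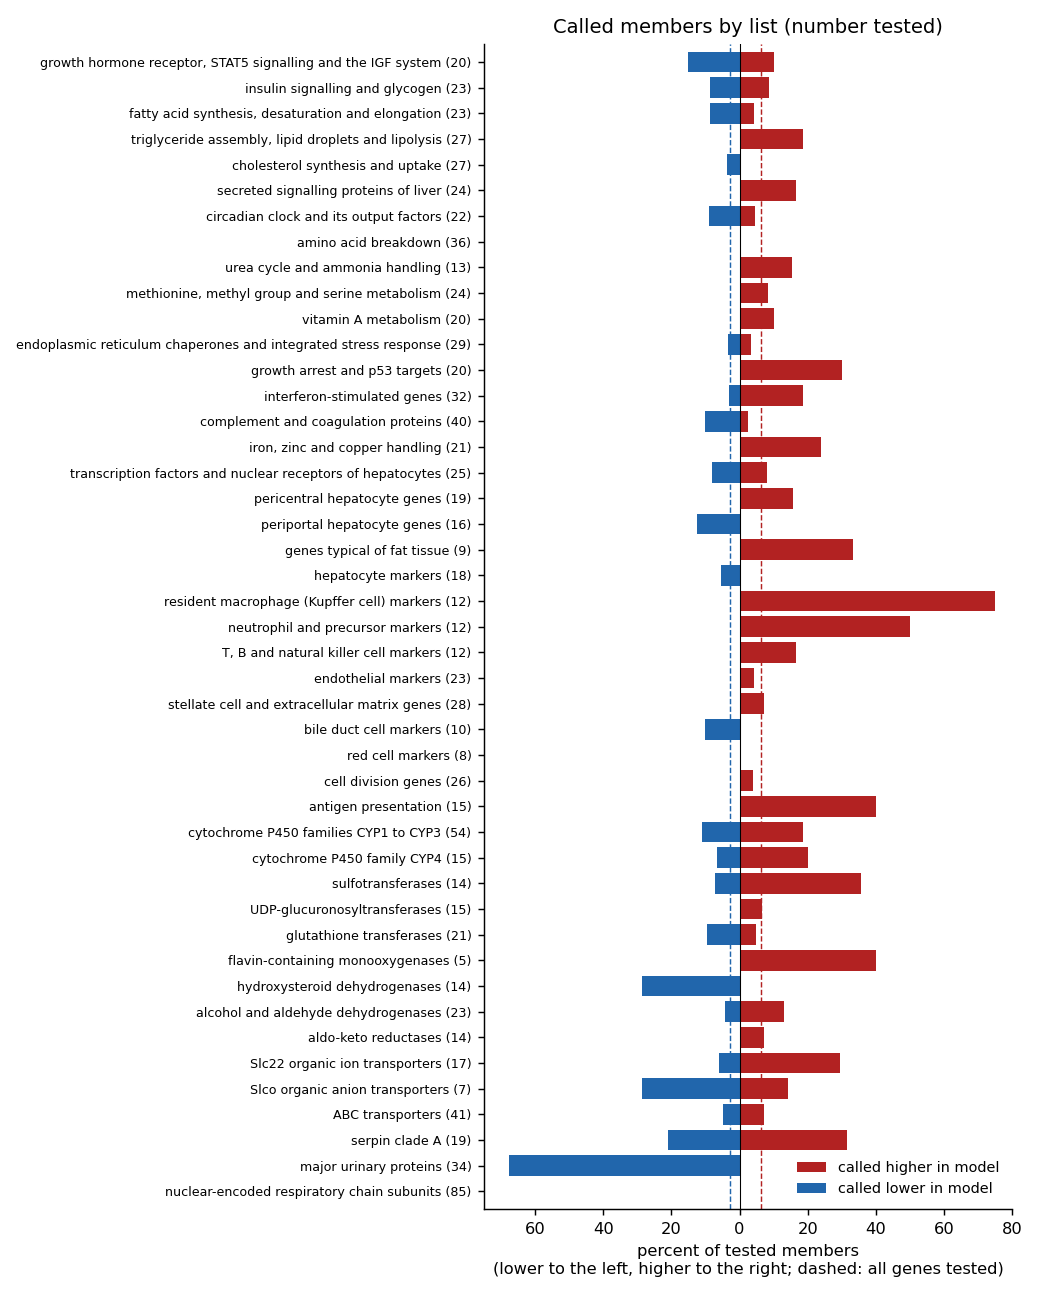
Percent of tested members called higher (red, to the right) and lower (blue, to the left) in model for each of 45 gene lists and families, with the number tested in brackets. Dashed lines mark the 6.18% higher and 2.90% lower of all genes tested. The longest bars are those of the Kupffer cell list, which also holds general macrophage genes, and of major urinary proteins (23 of 34 lower). In the Kupffer cell list 9 of 12 were higher, 3 in the reduced fit and 0 in the fit of the 8 libraries alone.

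Cell cycle arrest and p53 target genes rose for 6 of 20 genes, with 0 falling and 14 not called (median 1.05), and 5 of the calls were stable. Cdkn1a, the cyclin kinase inhibitor p21, stood at 53.8, 5.16, 18.1 and 11.2 CPM in model libraries, against 0.528, 1.34, 0.636 and 0.549 CPM in normal libraries (log2 fold change 4.83, SE 0.99, adjusted p = 0.00983). Ccng1, cyclin G1, stood at 105, 39, 36.5 and 50.9 CPM in model libraries, against 19.1, 18.6, 13.6 and 16 CPM in normal libraries (log2 fold change 1.79, SE 0.33, adjusted p = 0.00507). Phlda3, an inhibitor of AKT signalling, stood at 13.1, 4.89, 6.42 and 10.2 CPM in model libraries, against 0.211, 1.29, 0.832 and 0.137 CPM in normal libraries (log2 fold change 3.77, SE 0.79, adjusted p = 0.0103). The groups of all 3 were apart, and the model library model_327 was highest in each. Gadd45g, a stress sensor, stood at 325.2, 57.3, 190 and 162 CPM in model libraries, against 30.7, 25.6, 27 and 26.8 CPM in normal libraries (log2 fold change 2.74, SE 0.53, adjusted p = 0.00709). Without model_327 and model_387, 2 of the 20 were called and the median was 0.28. Cell division genes rose for 1 of 26 (median 1.26, or 0.27 with 0 and 0 in the reduced fit), and that list stood at 2.10 in model_387 and at -0.11 to 0.55 in the other model libraries.

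Stress and interferon genes differed between the model libraries. Of 29 genes of endoplasmic reticulum chaperones and the integrated stress response, 1 rose and 1 fell (median 0.72, or -0.47 with 0 and 2 in the reduced fit). Hspa5, the chaperone BiP, stood at 2540, 173, 311 and 234 CPM in model libraries, against 269, 229, 212 and 221 CPM in normal libraries and was not called (log2 fold change 1.81, SE 0.64, adjusted p = 0.0858). Ern1, the stress sensor IRE1, fell in a stable call with 40, 30, 29.9 and 26.5 CPM in model libraries, against 59.1, 56.2, 73.8 and 70.1 CPM in normal libraries (log2 fold change -1.04, SE 0.20, adjusted p = 0.00635). Of 32 interferon-stimulated genes 6 rose, 1 fell and 25 were not called (median 0.49). Without model_327 and model_387 the counts were 0 rising and 2 falling (median -0.25). Gbp2, a guanylate-binding protein, stood at 21.1, 1.67, 77.5 and 6.04 CPM in model libraries, against 1.48, 0.377, 1.37 and 0.0686 CPM in normal libraries (log2 fold change 4.97, SE 1.09, adjusted p = 0.0142) and was the only stable rise among them, with an adjusted p = 0.231 without those 2 libraries. The list stood at 0.84 in model_327, -0.56 in model_329, 1.64 in model_387 and 0.16 in model_407, against -0.25 to 0.43 in normal libraries.

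Markers of several other cell types were highest in model_387. In bulk RNA, more cells of a type and more RNA per cell cannot be told apart. Of 12 genes listed as Kupffer cell markers 9 rose, 0 fell and 3 were not called (median 2.59). The list also holds genes of macrophages in general, such as Adgre1 and Cd68, so it does not tell Kupffer cells from other macrophages. The reduced fit called 3 higher (median 1.86), and the fit of the 8 libraries alone called 0 (median 2.63). Their summed level was 220, 210, 1940 and 624 CPM in model libraries, against 156, 168, 253 and 87.2 CPM in normal libraries. In this sum model_387 and model_407 lay above all normal libraries and model_327 and model_329 within their range. Clec4f, given below, held much of the sum in some libraries, such as normal_376 (137 of 253 CPM). As the mean of log2(CPM + 0.5) less that of the normal group, the list stood at 0.84, 0.62, 3.56 and 2.22 in model libraries. Normal libraries stood at -0.73 to 0.38, so that by this mean all 4 model libraries lay above them. No marker was without reads in a whole group. Adgre1, the macrophage protein F4/80, stood at 3.75, 2.15, 28.2 and 6.89 CPM in model libraries, against 0.739, 1.13, 1.32 and 0.754 CPM in normal libraries (log2 fold change 3.37, SE 0.67, adjusted p = 0.00784), and without model_387 its log2 fold change was 2.10. Clec4f, which is restricted to Kupffer cells, stood at 11.8, 85.6, 14.8 and 196 CPM in model libraries, against 55, 69.8, 137 and 36.7 CPM in normal libraries and was not called (log2 fold change 0.05, SE 0.69, adjusted p = 0.973). Of 15 antigen presentation genes 6 rose and 0 fell (median 1.38). The reduced fit called 2 of them and the fit of the 8 libraries alone 0. Cd74, the invariant chain of MHC class II, stood at 66.6, 39.7, 763 and 283 CPM in model libraries, against 31.6, 24.5, 29.6 and 11.4 CPM in normal libraries (log2 fold change 3.57, SE 0.73, adjusted p = 0.00965).

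Neutrophil and precursor markers rose for 6 of 12 genes, in no stable call, and for 0 without model_327 and model_387. In the fit of the 8 libraries alone 4 of the markers passed the filter on low counts and 0 were called. The rest of the 12 passed it only where the treated db/db libraries were included. With so few reads in the normal group, a fall could hardly have been called. Their summed level was 53, 7.15, 2600 and 24.9 CPM in model libraries, against 5.12, 6.94, 11.2 and 5.14 CPM in normal libraries, so that model_387 stood far above all others, and 3 of the 15 markers had no read in the normal group. T, B and natural killer cell markers summed to 3.65, 8.55, 111 and 15.9 CPM in model libraries, against 14.7, 6.78, 10.1 and 5.35 CPM in normal libraries, and 2 of 12 rose (1 and 0 of 15 tested in the reduced fit). Of these lymphocyte markers 6 passed the filter in the fit of the 8 libraries alone, and 0 were called there. Of 10 bile duct cell markers 0 rose and 1 fell (0 and 2 in the reduced fit). Endothelial markers rose for 1 of 23 (1 and 0 in the reduced fit) and stellate cell and matrix genes for 2 of 28 (0 and 0 in the reduced fit), and Col1a1, the main fibrous collagen gene, was not called (log2 fold change 0.93, SE 0.97, adjusted p = 0.558). Red cell markers had 0 of 8 genes called by edgeR (median 1.13), with 4 higher at an unadjusted p under 0.05 and 2 by DESeq2 (1 and 0 of 9 tested in the reduced fit). The part of these cell types in the results above was not tested.

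**Figure D5:**
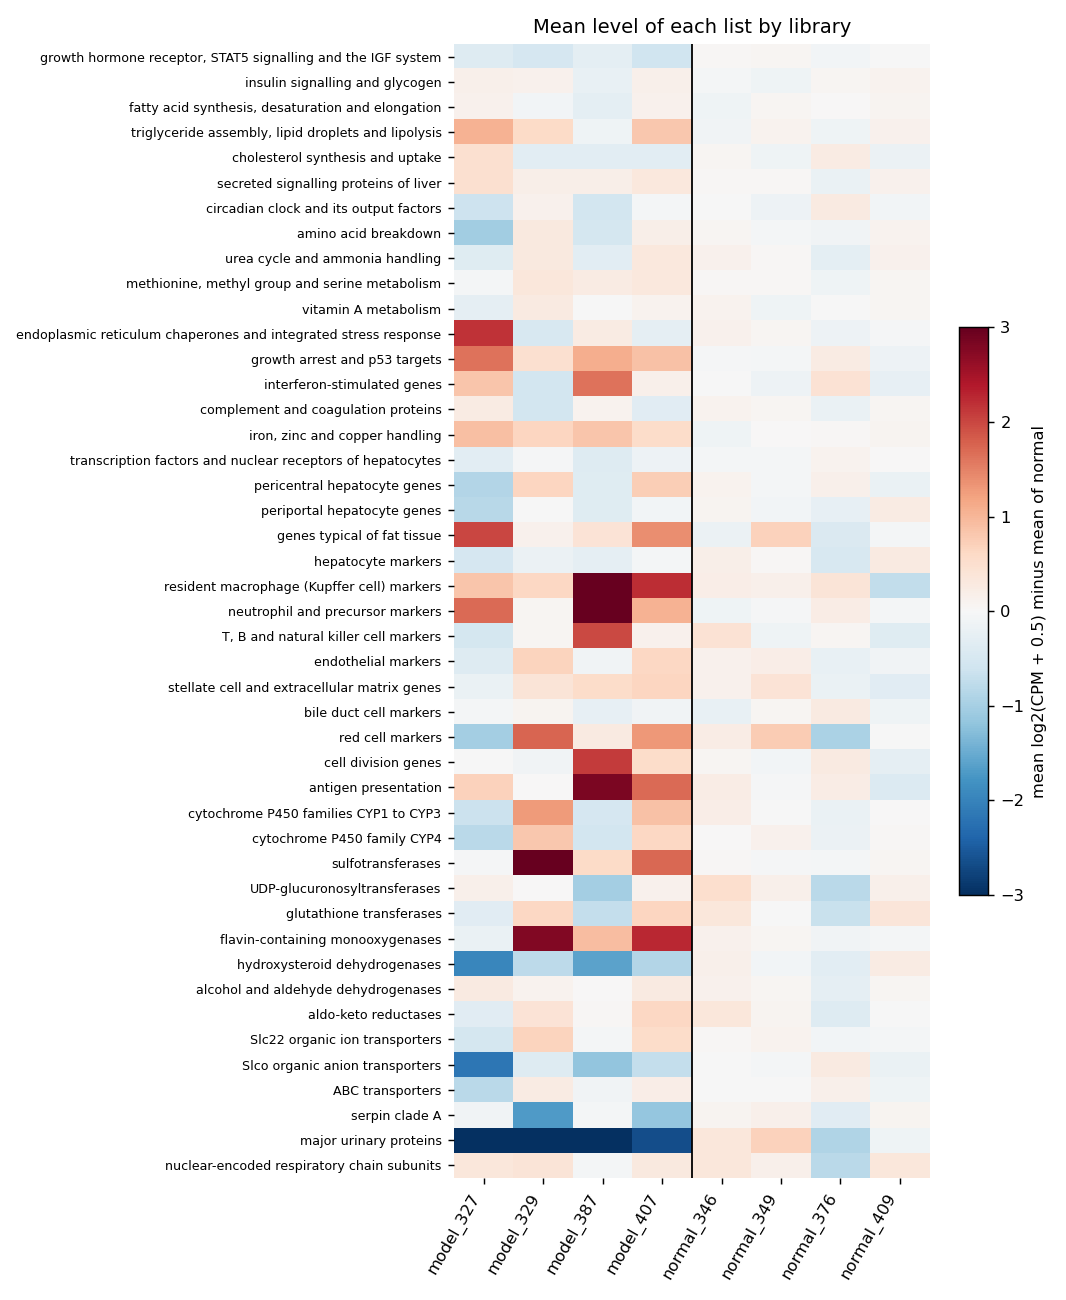
Mean level of each of 45 lists and families in each library, as the mean of log2(CPM + 0.5) over tested members less the mean of the 4 normal libraries, from blue (below) to red (above), with colours ending at 3 either way. Model libraries are on the left and normal libraries on the right of the black line. Major urinary proteins are low in all 4 model libraries, and neutrophil markers and the Kupffer cell list, which also holds general macrophage genes, are highest in model_387.

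Of 22 genes of the circadian clock and its output, 1 rose and 2 fell (median -0.09, with 0 and 0 in the reduced fit). Nr1d1, the repressor REV-ERB alpha, stood at 75.9, 161, 40.5 and 86.8 CPM in model libraries, against 274, 244, 330 and 356 CPM in normal libraries (log2 fold change -1.73, SE 0.41, adjusted p = 0.0188), a call lost without normal_409 (adjusted p = 0.0566). Nr1d1 overlaps Thra, so the falls of this pair may share reads. Arntl, the activator BMAL1, was not called (log2 fold change 0.16, SE 0.47, adjusted p = 0.851). The sources used here do not give the hour at which livers were taken. Of 20 genes of vitamin A metabolism 2 rose and 0 fell (1 and 0 in the reduced fit), and of 9 genes listed as typical of fat tissue 3 rose (1 and 0 of 10 tested in the reduced fit). Ucp2, an uncoupling protein of mitochondria and 1 of the 3, stood at 46.7, 26.8, 151 and 65.8 CPM in model libraries, against 16.1, 12.8, 12.7 and 8.02 CPM in normal libraries (log2 fold change 2.55, SE 0.48, adjusted p = 0.00575), the only stable call of that list. Ucp2 was highest in model_387, whereas the list level was 2.0 in model_327 and 0.41 in model_387. Lepr itself stood at 7.88, 3.33, 5.38 and 5.91 CPM in model libraries, against 1.48, 1.51, 1.91 and 2.13 CPM in normal libraries (log2 fold change 1.68, SE 0.43, adjusted p = 0.0257), a call lost without any 1 normal library or model_327 (at most 0.0725), and a gene count does not check the mutation. Nnt, a mitochondrial NADPH source that C57BL/6J mice are known to carry as a deletion allele, stood at 92.8, 60.6, 41.8 and 72.2 CPM in model libraries, against 43, 43.2, 32.3 and 39.8 CPM in normal libraries (log2 fold change 0.76, SE 0.22, adjusted p = 0.0402). That call was lost without any 1 normal library, model_327 or model_407 (at most 0.109). Reads of Nnt were counted in every normal library, but a gene count does not show which allele an animal carried.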

How the data were processed

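The values the authors deposited were counts of reads, 1 whole number for each Ensembl gene and library, with no normalization. The labels give RNA extraction with TRIzol, a DNase step and standard Illumina libraries. The submitters' processing notes name, without roles, the build GRCm38 and the tools HISAT2 (2.1.0), DESeq2 (1.28.0), StringTie (1.3.3b), CASAVA (1.8.2) and FastQC (0.11.5). Not given in the sources used here are the annotation, strand setting and treatment of multi-mapped reads. Values of near-identical copies (the Mup, Serpina1, Cyp, Sult, Hsd3b, Gstp, Cyp4a and C4 genes), antisense partners and overlapping genes are uncertain for that reason. Of 46078 gene IDs, 45229 (98.2%) matched GENCODE M21 for symbols and spans.

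The 4 columns of the white tea group held no values, so the fit planned for all 20 libraries used 16 in 4 groups (model, normal, pioglitazone, bamboo leaf extract). In R 4.3.3 with edgeR 4.0.16, filterByExpr left 15744 genes, TMM scaled libraries, and glmQLFit (robust) and glmQLFTest gave two-sided p-values for model minus normal, with Benjamini-Hochberg adjustment and a threshold of 0.05. CPM values were computed from the deposited counts after TMM, and plots and list levels used log2(CPM + 0.5). Alternatives were RLE and upper quartile scaling, no filter, a stricter filter (200 reads in all, and 4 libraries with at least 1 CPM), the model and normal libraries alone, a fold of 1.5 tested with glmTreat, DESeq2 1.42.0, limma 3.58.1 voom with quality weights, model_327 and model_387 left out together, and each library left out. Shares of counts were compared by exact permutation with scipy 1.17.1.

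On counts simulated for 15744 genes in this design, 23 of 100 genes changed 2-fold and 75 of 100 changed 4-fold were called, with 6 unchanged genes called, so a gene that was not called can still differ. The simulation gave all groups the same spread per gene and changed no gene of low mean count. In the data the model group had the larger SD for 71.6% of genes, so these rates may not hold for it or for genes of low count. Floors of 3 counts cover counting error only.

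The 30 gene lists (667 entries, 665 found), the 15 families and the genes named were chosen with earlier results of these data known. Named were the 10 largest rises and 10 largest falls in mean CPM without overlap of groups, the 10 higher and 10 lower stable calls of smallest p with a mean of at least 1 CPM in the higher group, up to 4 called members per list of smallest p (or 2 where none was called), Lepr and Nnt, with some list members left out. Some genes are not reported here. The genes added once their values were known were Acnat2, Adora1, Alb, Arntl, C4b, Cers6, Clec4f, Col1a1, Deptor, Eda2r, Fasn, Fgfr1, Foxq1, G6pc, Ghr, Gpat3, Hamp, Hes1, Hnf4a, Hspa5, Igf1, Igf2bp2, Igfals, Igfbp1, Lama3, Lifr, Maoa, Ntrk2, Ocln, Pck1, Rcan1, Robo1, Scd1, Selenbp1, Serpina1a, Serpina1b, Serpina1d, Smpd3, Spp1, Srebf1, Thra and Treh. Promoter windows were the 250 bases before each RefSeq start (GRCm38.p6), found for 11122 of the genes tested. Figures were drawn with matplotlib 3.10.9 in Python 3.11.15.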

Additional observations from a re-analysis of the deposited data

Results flagged for a closer look

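Within groups of 4 libraries, 250 groups of values of the genes named above and of the 2 shares of counts were searched for a library far from the others of its group, and 23 (9.2%) held one. Chance gives about 1 such library in 20 groups. In 10 of the 23 it was normal_376 and in 6 model_327.

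The normal library normal_376 was lowest of its group in Cyp7b1 (122 CPM), Fth1 (496 CPM), Hsd3b5 (85.1 CPM), Sdr9c7 (21 CPM), Serpina1c (2180 CPM), Serpina1d (878 CPM), Socs2 (27.6 CPM) and Sult1e1 (0.0489 CPM). It was highest of its group in Scap (189 CPM) and Selenbp2 (4400 CPM). In Selenbp2 the whole normal group spanned 3990 to 4400 CPM, so the gap was small beside the difference from the model libraries.

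The model library model_327 was lowest of its group in Alb (20300 CPM), Fgfr1 (3.11 CPM), Lrtm2 (1.7 CPM) and Socs2 (5.93 CPM). It was highest in Hnf4a (486 CPM) and Spp1 (939 CPM). The other model libraries that stood far from their group were model_387 in Scd2 (15.9 CPM, highest), and model_329 in Ntrk2 (2.47 CPM, lowest) and Sult3a2 (25.8 CPM, highest).

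In the normal group, normal_349 alone held reads of Cidea (0.108 CPM) and of Slc22a27 (0.161 CPM), and normal_409 was lowest in Gpat3 (1.1 CPM) and Treh (0.0686 CPM).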

How the results depend on the processing

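Counts of calls depended on the method, the libraries and the groups fitted together. Higher and lower genes numbered 973 and 456 in the fit reported, 110 and 116 in a fit of the model and normal libraries alone, 392 and 132 when a fold of 1.5 was tested, 1595 and 845 with DESeq2, 2243 and 2044 with limma voom, and 283 and 155 without model_327 and model_387. The count of lower genes was 283 with no filter. With 1 library left out, higher genes ranged from 296 to 1840 and lower genes from 209 to 1069. RLE scaling, upper quartile scaling and the stricter filter kept both counts within 1.5 times. Of 199 genes considered for naming, 172 were called, and 77 of these lost their call without model_327 and model_387. Among the 77, Socs1 also changed sign, with a log2 fold change of -0.76 there and 4.15 in the fit reported. With 1 library left out, 3 to 64 of the 172 lost their call. The cause of these differences was not tested. No paired analysis was possible because the groups share no animal number in the labels. Genes of low count limit what can be seen, since 3 counts over a group correspond to 0.0345 CPM in the model and 0.0413 CPM in the normal group.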

Other observations

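A receptor gene and enzyme genes outside the lists were among the stable rises. Ntrk2, the receptor of brain-derived neurotrophic factor, stood at 5.16, 2.47, 5.92 and 5.83 CPM in model libraries, against 0, 0.484, 0.0489 and 0.411 CPM in normal libraries (log2 fold change 4.38, SE 0.68, adjusted p = 0.00137). Treh, which splits the sugar trehalose, stood at 8.8, 1.67, 4.39 and 5.27 CPM in model libraries, against 0.37, 0.43, 0.44 and 0.0686 CPM in normal libraries (log2 fold change 3.88, SE 0.51, adjusted p = 0.000423). Acnat2, an acyltransferase that joins fatty acids to amino acids, stood at 98.2, 63.9, 97.6 and 69.1 CPM in model libraries, against 7.34, 18.4, 15 and 6.24 CPM in normal libraries. The monoamine oxidase gene Maoa, the calcineurin regulator gene Rcan1 and the RNA-binding protein gene Igf2bp2 had log2 fold changes of 1.43, 2.81 and 2.91 (adjusted p = 0.00477, 0.00157 and 0.00111), with groups that did not overlap.

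Spp1, which encodes the secreted protein osteopontin, stood at 939 CPM in model_327 and at 71.3, 55.7 and 68.1 CPM in the other model libraries, against 73.6, 68.5, 76.8 and 64.7 CPM in normal libraries. It was not called (log2 fold change 2.0, SE 0.73, adjusted p = 0.0922). Calls were found on every chromosome examined. Chromosome 19 had the highest share, with 52 higher and 16 lower of 548 genes tested (12.4%), and chromosome 14 the lowest, with 29 higher and 5 lower of 520 (6.54%), against 9.08% of all genes.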
